A study of Mus musculus with 80 samples.

Results

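The whole-liver pools are the libraries of unpurified liver nuclei in a study of fasting in female mice. They were chosen by their titles, which end in HEP_WL or MAC_WL, and they number 16 of the 80 libraries: 8 from fasted and 8 from fed mice. Each pool holds nuclei of 4 mice. The mice belong to 2 lines, HEP-INTACT and MAC-INTACT, in which a nuclear tag allows capture of hepatocyte or macrophage nuclei on beads, and the pools are the nuclei before that capture. Food was withdrawn at zeitgeber time 12, the start of the active phase, and livers were taken 3, 8, 16 and 24 h later, at zeitgeber times 15, 20, 4 and 12. Fed mice with free access to food were killed at the same 4 times. Each of the 8 combinations of time and feeding state therefore has 2 pools, 1 of each line. All mice are of a tagged line. The strain, the age and the promoters that drive the tag were not given in the sources used here. Line and library batch cannot be told apart, because the library codes in the titles run separately for the lines. Whether the mice of a pool also gave tagged nuclei is not stated. The other 64 libraries, 32 of tagged hepatocyte and 32 of tagged macrophage nuclei, are used here only to class genes by source and to set their fasting change beside that of the pools. The labels do not say that pools of a condition are independent beyond their line, so the p-values measure the spread between these pools.

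Fasting moves the liver from storing to releasing fuel. Fatty acids from adipose tissue activate the nuclear receptor PPARα, which drives fatty acid oxidation and ketone production. Glucagon and glucocorticoids drive gluconeogenesis, and the fall in insulin releases FoxO factors and shuts down SREBP factors, which drive the synthesis of fatty acids and cholesterol. Hepatocytes hold most of the liver's RNA, and the liver also holds sinusoidal endothelial cells, stellate cells, Kupffer cells (its resident macrophages), bile duct cells and lymphocytes. Nuclear RNA is rich in unspliced transcripts, so it follows recent transcription more closely than total cell RNA does.

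The pools held 13246494 to 35514304 counts. Of 20105 genes in the table, 13700 passed the filter on low counts. The first principal component of the log2 values carried 31.3% of the variance and placed all 8 fasted pools on one side of all 8 fed pools. The MAC-line 24 h fed pool, at 0.31, and the HEP-line 16 h fed pool, at -9.27 (its MAC-line partner was at -40.3), lay nearest to the fasted pools, whose lowest score was 9.53. The second component carried 17.1% and set the 16 h fasted pools of both lines apart from the other pools. Summed hepatocyte markers were at 16867, 21009.8 and 25465 CPM in fed and 16623, 25033 and 32525 CPM in fasted pools. These ranges overlapped, and Alb, the main serum protein of hepatocytes, was at 2641, 3768 and 5800.0 CPM in fed and 1618, 3925 and 6875 CPM in fasted pools.

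Averaged over the 4 times, 2250 genes were higher and 2576 lower in fasted than in fed pools at an adjusted p under 0.05, which is 16.4% and 18.8% of the genes tested and 35.2% in all (edgeR's quasi-likelihood F-test with time and line as terms). A change of more than 2-fold was called for 246 higher and 374 lower genes. The median log2 fold change over all genes was -0.01. Fasted and fed pools did not overlap for 274 genes, 2% of those tested, of which 111 (0.81%) were higher and 163 (1.19%) lower in all fasted pools. Paired by line and time, 1958 genes (14.3%) had the same sign in all 8 pairs.

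In the sentences that follow, 3 levels in a row are the lowest, the median and the highest of 8 pools in CPM, counts scaled by the TMM-adjusted library total, and a fold change is the mean of the log2 differences, fasted over fed, at the 4 times, given with its standard error. The gene lists and their members were chosen with earlier results of these data known. A list's share beside that of all genes, 16.4% higher and 18.8% lower, is therefore a description and not a test. Fits that leave out the pools of a time call fewer genes or more. Without the 3 h pools 1510 of 13632 genes rose and 1935 fell, and without the 8 h pools 1304 of 13593 rose and 1551 fell. List counts without these pools stand beside those numbers.

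Genes of fatty acid oxidation and ketone production were mostly higher in fasted liver. Of 49 members tested, 39 rose and 0 fell (79.6%, against 16.4% of all genes that rose), with a median log2 fold change of 0.85. Cyp4a14, a fatty acid omega-hydroxylase and a classical PPARα target, was at 34.0, 65.8 and 442 CPM in fed and 387, 1205 and 2375 CPM in fasted pools. Only the HEP-line 16 h fed pool reached the fasted range. Its log2 fold change was 3.88 ± 0.48 (adjusted p = 0.000424). Its close relative Cyp4a10 was at 48.0, 81.0 and 245 CPM in fed and 424, 736 and 1551 CPM in fasted pools, without overlap, and rose, with a log2 fold change of 2.85 ± 0.43 (adjusted p = 0.00113). These genes and Cyp4a31 (log2 fold change 2.21 ± 0.37, adjusted p = 0.00203) are close copies, and reads shared between them cannot be assigned with certainty. The direct repeat bound by PPAR and RXR, searched on both strands, lay in the promoters of 1 of 33 genes of the list (3.03%) and of 0.316% of all genes. That gene is Fabp1, the liver fatty acid binding protein, whose log2 fold change of -0.38 ± 0.17 (adjusted p = 0.107) did not pass the test. Of the 31 tested genes with a match 5 rose and 7 fell.

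Hsd17b4, a peroxisomal enzyme of beta-oxidation, was at 207, 276 and 300.4 CPM in fed and 364, 468 and 646 CPM in fasted pools. Every fasted pool exceeded every fed pool, with a log2 fold change of 0.86 ± 0.08 (adjusted p = 1.47e-05). Cpt1a, which moves long-chain fatty acids into mitochondria, was at 155, 337 and 611 CPM in fed and 459.8, 721 and 848 CPM in fasted pools, with overlap, and rose, with a log2 fold change of 1.06 ± 0.17 (adjusted p = 0.000871). Acot1, a thioesterase of acyl-CoA, was at 1.58, 7.33 and 11.6 CPM in fed and 12.7, 28.0 and 98.1 CPM in fasted pools and rose, with a log2 fold change of 2.30 ± 0.27 (adjusted p = 0.00026).

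Cidec, a lipid droplet protein, had the highest log2 fold change among the named genes with the same sign in all 8 pairs of fasted and fed pools, 3.93 ± 0.38 (adjusted p = 2.36e-05), from a low level of 0.0622, 0.165 and 0.647 CPM in fed and 0.416, 2.39 and 9.63 CPM in fasted pools. Angptl4, a secreted inhibitor of lipoprotein lipase, was at 9.21, 19.1 and 68.5 CPM in fed and 59.6, 143 and 179 CPM in fasted pools and rose, with a log2 fold change of 2.39 ± 0.32 (adjusted p = 0.000674). Pdk4, which blocks pyruvate oxidation, rose, with a log2 fold change of 2.18 ± 0.50 (adjusted p = 0.00991), with its levels at 2.05, 11.3 and 27.9 CPM in fed and 8.27, 39.5 and 197 CPM in fasted pools overlapping between the groups. Fgf21, a hormone of the fasted liver, was at 0, 0.245 and 0.448 CPM in fed and 0.208, 1.46 and 5.57 CPM in fasted pools, with its 4 highest values in the fasted pools of 8 and 16 h.

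**Figure D1:**
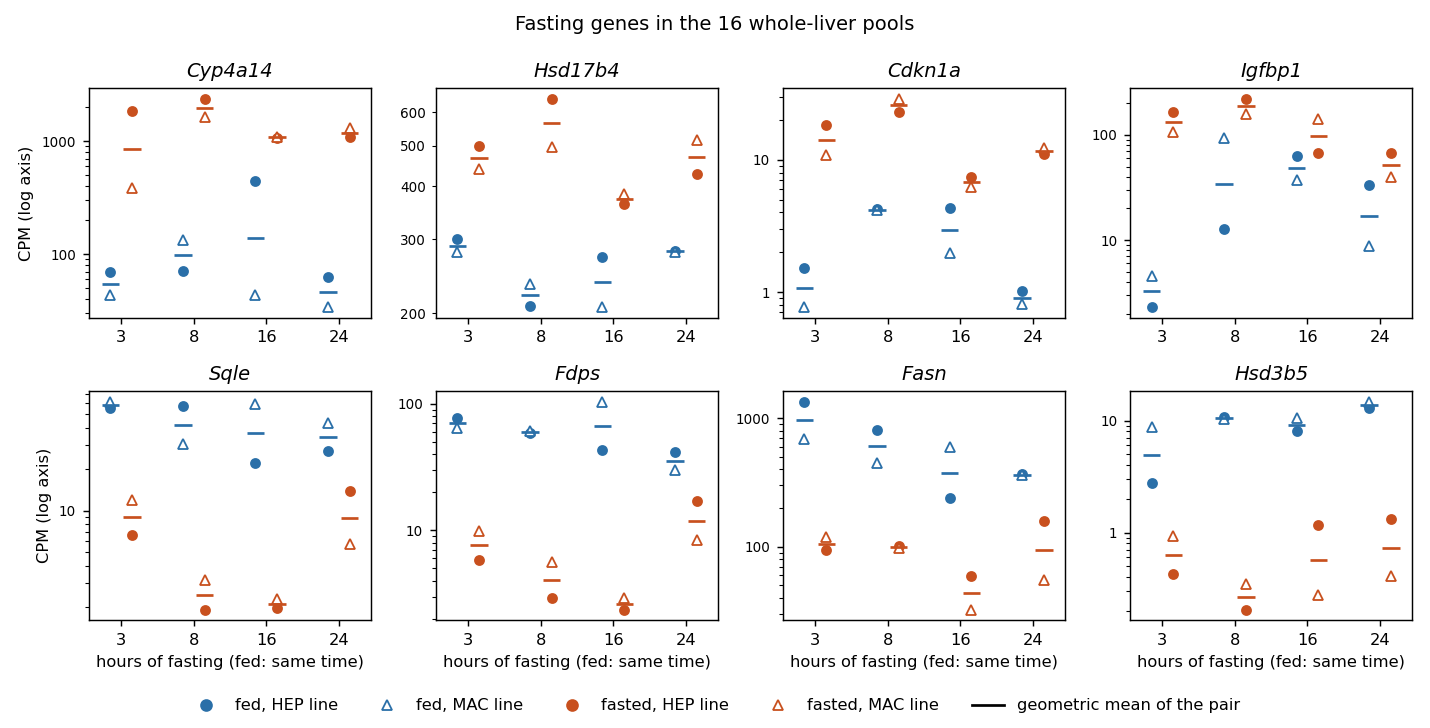
Levels of 8 genes in each of the 16 whole-liver pools, as CPM on a log axis, against hours of fasting. Blue symbols are fed and orange symbols fasted pools, filled circles the HEP line and open triangles the MAC line, and bars the geometric mean of the 2 pools of a condition. Hsd17b4, Cdkn1a, Sqle, Fdps, Fasn and Hsd3b5 have no overlap between fed and fasted pools, and Cyp4a14 overlaps through the HEP-line 16 h fed pool at 442 CPM.

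Genes listed as targets of the glucocorticoid receptor, the nuclear receptor for corticosterone, were higher as a group, and most so at 3 and 8 h. Over the 4 times 23 of 30 were higher and 1 lower, and the median was 0.96. At 3 h 21 rose, with a median of 1.73 (8.79% of all genes rose at that time), at 8 h 16 rose, with a median of 1.35 (8.72%), and at 16 h 0 were higher and 2 lower, with a median of 0.11. Without the 3 h pools 14 rose over the other times, and without the 8 h pools 15. Cdkn1a (chromosome 17, 29090985 to 29100722, plus strand, build mm10), an inhibitor of cyclin-dependent kinases that is also on the cell cycle list, was at 0.768, 1.74 and 4.33 CPM in fed and 6.26, 11.7 and 28.9 CPM in fasted pools. No fed pool reached a fasted pool, and the log2 fold change was 2.81 ± 0.17 (adjusted p = 1.44e-06). Fkbp5, a chaperone of steroid receptors, was at 56.0, 108 and 646 CPM in fed and 152, 697 and 1421 CPM in fasted pools and rose, with a log2 fold change of 1.74 ± 0.31 (adjusted p = 0.00304). Klf9, a transcription factor, rose, with a log2 fold change of 0.88 ± 0.09 (adjusted p = 3.17e-05), and Cebpd, a transcription factor that lies inside Spidr, by 1.67 ± 0.18 (adjusted p = 3.24e-05).

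Metallothionein genes bind zinc and are induced by glucocorticoids. Mt2 was at 0.455, 1.77 and 10.03 CPM in fed and 7.82, 26.4 and 116 CPM in fasted pools and rose, with a log2 fold change of 4.09 ± 0.49 (adjusted p = 0.000352). Its neighbour Mt1 is outside the naming rule. It is named as the called glucocorticoid target with a match in its promoter and the smallest p. It was at 1.04, 4.21 and 16.4 CPM in fed and 10.4, 31.97 and 110.2 CPM in fasted pools. Its log2 fold change was 3.40 ± 0.40 (adjusted p = 0.000317). The core of the glucocorticoid response element was searched as ACANNNTGT, which reads the same on both strands. This search, like those for the other motifs, covered the 250 bases before the RefSeq start of each gene. The core lay in 3 of 27 promoters of the list (11.1%) and in 3.85% of the 9811 promoters of genes tested. Of the 378 genes with a match 57 rose and 75 fell. Of the 375 outside the list 54 rose and 75 fell, with a median log2 fold change of -0.03. One stretch of the Mt1 promoter is shown because it holds a match, in capitals; it runs from 137 to 38 bases before the start, at chr8:94178952-94179051, plus strand, and is RefSeq sequence of build GRCm38.p6.
Mt1: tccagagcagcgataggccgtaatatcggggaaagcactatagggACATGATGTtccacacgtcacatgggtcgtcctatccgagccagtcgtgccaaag

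Of 20 gluconeogenic genes 12 were called higher and 1 lower, with a median log2 fold change of 0.49. At 16 h none of the 20 was called higher and 3 were lower, the median being -0.15 (2.11% of all genes rose and 3.8% fell at that time). Without the 3 h pools 3 of the 20 rose. Pck1, the enzyme that makes phosphoenolpyruvate, was at 210.5, 721 and 1526 CPM in fed and 572, 1661 and 2356 CPM in fasted pools, with overlap, and rose, with a log2 fold change of 1.16 ± 0.26 (adjusted p = 0.00763). Its log2 fold change was 2.90 ± 0.55 at 3 h and 0.25 ± 0.52 at 16 h. Ppargc1a, a coactivator of gluconeogenic genes, was at 83.9, 108 and 248 CPM in fed and 101, 351 and 469 CPM in fasted pools and rose, with a log2 fold change of 1.239 ± 0.19 (adjusted p = 0.000971), with values of 2.15 ± 0.39 at 3 h, -0.46 ± 0.38 at 16 h and 1.79 ± 0.39 at 24 h. G6pc, the glucose-6-phosphatase that releases glucose, was at 159, 365 and 868 CPM in fed and 387, 804 and 1019.8 CPM in fasted pools, with a log2 fold change of 0.79 ± 0.26 (adjusted p = 0.0424). This call was lost without any one of 12 of the 16 pools, with adjusted p up to 0.105.

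Targets of FoxO factors and genes that insulin represses had 14 of 24 members higher and 2 lower, with a median of 0.25. At 3 h 13 of the 24 rose (8.79% of all genes rose at that time). Without the 3 h pools 4 rose, where 1510 of 13632 genes rose in all. Without the 8 h pools 9 rose, where 1304 of 13593 genes did. Igfbp1, a secreted binding protein of insulin-like growth factors, was at 2.31, 22.99 and 92.8 CPM in fed and 40.1, 124 and 221 CPM in fasted pools and rose, with a log2 fold change of 2.37 ± 0.47 (adjusted p = 0.00502). All 8 pairs were higher when fasted, and its log2 fold change at 3 h was 5.20 ± 1.09. Foxo1, itself a FoxO factor, rose, with a log2 fold change of 0.56 ± 0.10 (adjusted p = 0.000952), with 1.31 ± 0.20 at 3 h and -0.22 ± 0.20 at 16 h. Amino acid breakdown and the urea cycle had 16 of 28 genes higher and 3 lower, with a median of 0.43; without the 3 h pools 8 rose. Tdo2, the first enzyme of tryptophan breakdown, was at 269, 540.5 and 742 CPM in fed and 659.8, 1093 and 1577 CPM in fasted pools and rose, with a log2 fold change of 1.12 ± 0.11 (adjusted p = 2.33e-05). Aass, the first enzyme of lysine breakdown, was at 550.2, 762 and 922 CPM in fed and 681, 1845 and 2309 CPM in fasted pools and rose, with a log2 fold change of 1.07 ± 0.12 (adjusted p = 4.15e-05).

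Cholesterol synthesis was the list with the lowest median, -2.06: of 26 genes 24 fell and 0 rose (92.3%, against 18.8% of all genes). The other 2 had log2 fold changes below 0 that did not pass the test. Medians were -2.02, -2.26 and -2.71 at 3, 8 and 16 h, with 22, 24 and 24 genes lower (9.26%, 11.7% and 3.8% of all genes), and -1.12 at 24 h, with 5 lower (3.09%). Sqle, which makes squalene epoxide, was at 22.1, 49.3 and 61.7 CPM in fed and 1.91, 4.43 and 13.9 CPM in fasted pools. No fed pool came down to the level of a fasted pool, with a log2 fold change of -3.21 ± 0.31 (adjusted p = 0.000119). Fdps, the farnesyl diphosphate synthase, was at 30.1, 59.7 and 104 CPM in fed and 2.35, 5.76 and 17.2 CPM in fasted pools and fell, with a log2 fold change of -3.31 ± 0.26 (adjusted p = 3.57e-05).

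Sterol regulatory elements were searched as TCACNCCAC on both strands, and of the 94 tested genes with a match 18 rose and 24 fell. A match lay in the promoters of 1 of 18 genes of the list (5.56%) and of 0.958% of all genes. That gene is Hmgcs1, which makes HMG-CoA, at 36.1, 121 and 297 CPM in fed and 20.3, 30.6 and 47.9 CPM in fasted pools, with a log2 fold change of -1.75 ± 0.21 (adjusted p = 0.000307); it was chosen for its promoter. The stretch from 182 to 83 bases before its start, chr13:119690169-119690268, plus strand, RefSeq GRCm38.p6, is shown with the match in capitals.
Hmgcs1: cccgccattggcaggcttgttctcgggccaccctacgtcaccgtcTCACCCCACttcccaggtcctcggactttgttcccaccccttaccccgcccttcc

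Synthesis of fatty acids and triglycerides followed, with 21 of 26 genes lower, 2 higher and a median of -1.06. The 2 that rose were Lpin2 (1.18) and Dgat1 (0.40), which act late in triglyceride synthesis. Fasn, the fatty acid synthase, was at 239.5, 524 and 1353 CPM in fed and 32.1, 96.0 and 159 CPM in fasted pools, with no overlap and a log2 fold change of -2.74 ± 0.30 (adjusted p = 0.000249). Srebf1, which encodes the SREBP-1 factor and overlaps Rai1, was at 149, 273 and 419 CPM in fed and 28.5, 54.4 and 99.7 CPM in fasted pools, again without overlap, with a log2 fold change of -2.35 ± 0.21 (adjusted p = 5.67e-05). Pnpla3, a lipid droplet protein, was at 7.61, 72.8 and 124 CPM in fed and 1.43, 4.66 and 9.46 CPM in fasted pools, with a log2 fold change of -3.79 ± 0.56 (adjusted p = 0.00103), and the HEP-line 16 h fed pool at 7.61 CPM was the fed pool within the fasted range. Of 25 genes of glycolysis and glycogen 4 were higher and 6 lower (16% and 24%, near the shares of all genes), with a median of 0.08. Pklr, the liver pyruvate kinase, was at 69.1, 101 and 152 CPM in fed and 13.1, 30.4 and 62.0 CPM in fasted pools, without overlap, with a log2 fold change of -1.73 ± 0.22 (adjusted p = 0.000367). Ldha, the lactate dehydrogenase A subunit, was at 31.7, 39.3 and 53.7 CPM in fed and 47.6, 76.1 and 98.9 CPM in fasted pools, higher in all 8 pairs, with a log2 fold change of 0.82 ± 0.08 (adjusted p = 2.11e-05).

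Genes of the growth hormone pathway and its factor STAT5 were lower for 14 of 21 and higher for 1, with a median of -0.71 and of -1.54 at 8 h. Hsd3b5, a steroid dehydrogenase, was at 2.77, 10.5 and 14.8 CPM in fed and 0.203, 0.416 and 1.32 CPM in fasted pools, with a log2 fold change of -4.03 ± 0.35 (adjusted p = 3.24e-05) and no overlap. Cyp3a16, a cytochrome P450 with close copies, was at 33.9, 61.1 and 113 CPM in fed and 7.56, 15.7 and 30.4 CPM in fasted pools and fell, with a log2 fold change of -1.83 ± 0.11 (adjusted p = 2.32e-06). Mup3, a major urinary protein with close copies, was at 89.8, 112 and 162 CPM in fed and 21.3, 30.9 and 100.0 CPM in fasted pools, with a log2 fold change of -1.61 ± 0.11 (adjusted p = 5.38e-06). Chaperones and folding enzymes of the endoplasmic reticulum were lower for 18 of 21, with 1 higher and a median of -0.67. Hsp90b1, an abundant chaperone, was at 235, 299 and 363 CPM in fed and 157, 195 and 239.8 CPM in fasted pools, with a log2 fold change of -0.67 ± 0.09 (adjusted p = 0.00011). Pdia4, a disulfide isomerase, was at 61.3, 74.4 and 99.9 CPM in fed and 31.8, 52.5 and 65.3 CPM in fasted pools, with a log2 fold change of -0.70 ± 0.09 (adjusted p = 0.000115). At 3 h 14 genes were lower, at 8 h 10 and at 16 and 24 h 2 each, with medians of -1.02, -0.77, -0.55 and -0.53, while 9.26%, 11.7%, 3.8% and 3.09% of all genes were lower at these times.

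Interferon response genes, which defend cells against viruses, were lower in fasted liver in 36 of 39 cases and higher in 0, with a median of -0.67 (92.3% lower, against 18.8% of all genes). The 3 without a call were Ifit3b, Usp18 and Ifi44, each with a log2 fold change below 0. At 8 h 24 of the 39 were lower, with a median of -0.92. Stat2, a transcription factor of the interferon signal, was at 144, 203 and 237 CPM in fed and 105, 125 and 169 CPM in fasted pools, with a log2 fold change of -0.63 ± 0.07 (adjusted p = 4.02e-05). Its levels were lower in all 8 pairs, and the highest fasted pool stayed above the lowest fed pool. Irf1, another factor of the pathway, was at 24.2, 33.2 and 39.6 CPM in fed and 15.2, 18.7 and 24.3 CPM in fasted pools, with a log2 fold change of -0.80 ± 0.09 (adjusted p = 5.62e-05). Zbp1, a sensor of nucleic acids, was at 6.66, 10.6 and 16.1 CPM in fed and 1.58, 2.14 and 6.81 CPM in fasted pools, with a log2 fold change of -1.96 ± 0.30 (adjusted p = 0.000848). By source, 24 of the 39 were in the class of genes enriched in tagged macrophage nuclei and 14 in the class retained in hepatocyte nuclei. In tagged nuclei the same list had 38 of 39 lower in hepatocytes and 39 of 39 lower in macrophages, where 27.8% and 19.1% of the genes of the pools were lower.

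Promoters of this list share a motif. The interferon-stimulated response element, searched on both strands as GAAA, any 2 bases and GAAA, lay in 17 of 28 promoters of the list (60.7%) and in 277 of 9811 promoters of all genes tested (2.82%). Of those 277 genes 39 rose and 78 fell, and of the 260 outside the list 39 rose and 62 fell. Outside the list the median log2 fold change was -0.07, against -0.01 over all genes, of which 16.4% rose and 18.8% fell. Stretches of 4 promoters are shown, with matches in capitals (on the other strand the motif reads TTTC, any 2 bases and TTTC). They belong to the called list members that hold a match and have the smallest p. All are RefSeq GRCm38.p6, plus strand.
Stat2, chr10:128270248-128270347: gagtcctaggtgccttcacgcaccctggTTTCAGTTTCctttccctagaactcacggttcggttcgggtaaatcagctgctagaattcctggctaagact
Ifit1, chr19:34640759-34640858: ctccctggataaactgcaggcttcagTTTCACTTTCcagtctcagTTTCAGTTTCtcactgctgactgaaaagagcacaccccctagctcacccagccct
Irgm2, chr11:58214868-58214967: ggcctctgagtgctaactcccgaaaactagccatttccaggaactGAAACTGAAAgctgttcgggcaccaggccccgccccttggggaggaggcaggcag
Igtp, chr11:58199456-58199555: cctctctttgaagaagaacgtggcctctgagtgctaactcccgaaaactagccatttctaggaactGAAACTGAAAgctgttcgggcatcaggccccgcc

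The first match lies 222 bases before the start of Stat2, 104 before that of Ifit1, 64 before that of Irgm2 and 34 before that of Igtp. Ifit1, an RNA-binding effector, was at 2.90, 3.97 and 7.44 CPM in fed and 1.31, 1.93 and 3.56 CPM in fasted pools, with a log2 fold change of -1.09 ± 0.18 (adjusted p = 0.000479). Irgm2 and Igtp, immunity-related GTPases that are near copies of each other, had a log2 fold change of -0.72 ± 0.12 (adjusted p = 0.000549) and a log2 fold change of -0.89 ± 0.14 (adjusted p = 0.000572). Ifit1, Irgm2 and Igtp were chosen, with Stat2, as the called members that hold a match and have the smallest p. Antigen presentation genes moved the same way, with 13 of 19 lower, 0 higher and a median of -0.51; without the 8 h pools 4 were lower. Psmb9, a subunit of the immunoproteasome, was at 3.73, 5.33 and 7.20 CPM in fed and 1.58, 2.45 and 4.32 CPM in fasted pools, with a log2 fold change of -1.03 ± 0.15 (adjusted p = 0.000225). Tapbp, which loads peptides on MHC class I, was at 19.3, 24.8 and 29.6 CPM in fed and 13.0, 15.3 and 19.0 CPM in fasted pools, with no overlap and a log2 fold change of -0.65 ± 0.08 (adjusted p = 0.000101).

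Other lists were mixed or small, and their shares stand beside 16.4% higher and 18.8% lower over all genes. Of 31 genes of autophagy and lysosomes 15 were higher and 4 lower (48.4% and 12.9%), with a median of 0.20, and 5 were higher without the 3 h pools. Optn, an autophagy receptor, did not overlap, at 244, 267 and 296 CPM in fed and 326, 356 and 434 CPM in fasted pools, with a log2 fold change of 0.42 ± 0.06 (adjusted p = 0.000217). Of 19 clock genes 3 were higher and 6 lower (15.8% and 31.6%), with 0 to 4 higher when single pools were left out. Per1, which glucocorticoids induce, had a log2 fold change of 1.0 ± 0.29 (adjusted p = 0.0277), and its call was lost without any one of 11 pools (adjusted p up to 0.0834), while Per2 had a log2 fold change of -0.87 ± 0.16 (adjusted p = 0.00199) and Per3 -0.86 ± 0.09 (adjusted p = 2.59e-05). The 17 immediate early genes had 4 higher and 0 lower (23.5% and 0%), led by Jun, at 2.78, 5.06 and 7.13 CPM in fed and 5.87, 10.9 and 25.2 CPM in fasted pools, with a log2 fold change of 1.32 ± 0.22 (adjusted p = 0.00112). Of 22 cell cycle genes 8 were lower and 2 higher (36.4% and 9.09%), and Ccnd1, which drives entry into the cycle, was at 4.82, 12.6 and 21.8 CPM in fed and 2.69, 3.77 and 13.9 CPM in fasted pools, with a log2 fold change of -1.25 ± 0.21 (adjusted p = 0.00114). The 19 acute phase genes had 3 higher and 7 lower (15.8% and 36.8%). Of 17 heat shock genes 1 fell and 0 rose (5.88% and 0%), with a median of -0.01. Of 20 bile acid genes 3 were higher and 5 lower (15% and 25%). Cyp7a1, whose enzyme sets the pace of bile acid production, was at 101, 239 and 434 CPM in fed and 5.49, 153 and 265 CPM in fasted pools, with a log2 fold change of -1.33 ± 0.40 (adjusted p = 0.0303), a call lost without any one of 10 pools (adjusted p up to 0.0820).

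**Figure D2:**
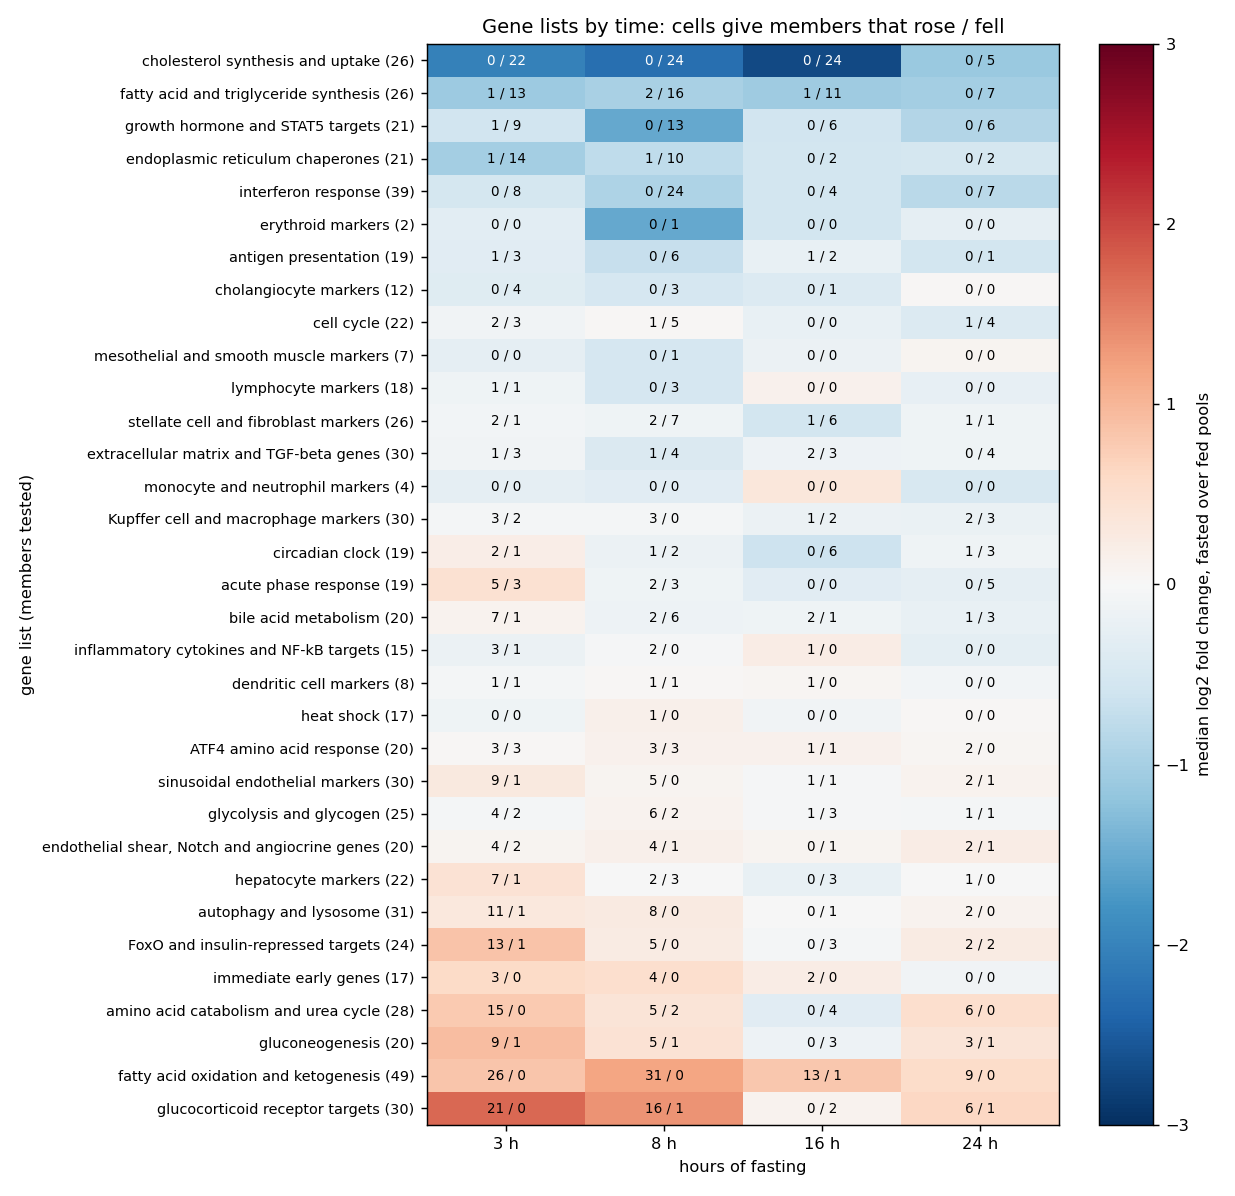
Median log2 fold change of each gene list at 3, 8, 16 and 24 h, fasted over fed whole-liver pools, as colour from blue (lower) to red (higher), with the numbers of members that rose and fell printed in each cell and the number tested beside each name. Cholesterol synthesis has the lowest medians at 3, 8 and 16 h, down to -2.71, and glucocorticoid receptor targets go from 1.73 at 3 h to 0.11 at 16 h.

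Genes of cells other than hepatocytes were followed in 2 ways: by marker lists and by a class taken from the tagged libraries. A class of 835 genes was lower in both kinds of tagged nuclei than in the pools of their line (log2 difference under -0.5 with an adjusted p under 0.05 in each), and was called depleted from both. Of these 120 rose and 190 fell (14.4% and 22.8%, against 16.4% and 18.8% of all genes), with a median of -0.09. The macrophage-enriched class, above 1 in tagged macrophage nuclei, had 2030 genes, of which 179 rose and 494 fell (8.82% and 24.3%), with a median of -0.13. Among 10123 hepatocyte-retained genes 1897 were higher and 1789 lower, and the median was 0.02. In bulk nuclei, fewer cells of a type and less RNA per cell cannot be told apart, so every value for a non-parenchymal gene is a level in whole liver.

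Sinusoidal endothelial markers were mixed in direction. Of 30 tested, 11 rose and 4 fell (36.7% and 13.3%), with a median of 0.07. With single pools left out 9 to 12 rose and 2 to 4 fell, and 6 rose without the 3 h pools and 7 without the 8 h pools. Their summed level was at 1812, 2174 and 2442 CPM in fed and 1916, 2229 and 2593 CPM in fasted pools, with overlapping ranges. Of the 30, 22 were in the class depleted from both, 5 were macrophage-enriched and 1 was hepatocyte-retained. Lyve1 (chromosome 7, 110850606 to 110862953, minus strand), a hyaluronan receptor of sinusoidal and lymphatic endothelium, was at 3.15, 4.02 and 7.81 CPM in fed and 7.57, 12.2 and 15.9 CPM in fasted pools. All 8 pairs were higher when fasted, with overlap only between the HEP-line 16 h fed pool and the MAC-line 16 h fasted pool, and the log2 fold change was 1.45 ± 0.16 (adjusted p = 4.32e-05). Stab1, a scavenger receptor whose gene overlaps Nt5dc2 on the other strand and which is in the macrophage-enriched class, was at 50.7, 64.6 and 109.7 CPM in fed and 71.7, 102 and 159 CPM in fasted pools, with a log2 fold change of 0.55 ± 0.06 (adjusted p = 3.73e-05). The lines differed in level: within a condition each HEP-line pool was above the MAC-line pool. Cd36, a fatty acid transporter also made by hepatocytes, was at 21.0, 28.8 and 34.0 CPM in fed and 28.8, 37.6 and 54.1 CPM in fasted pools, with a log2 fold change of 0.44 ± 0.08 (adjusted p = 0.000989). Stab2, Cdh5 and Tek, which mark the same cells, had log2 fold changes of -0.03, 0.03 and -0.07, none of which passed the test; they were picked after their values were seen.

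Genes of endothelial flow sensing, Notch and angiocrine signals had 6 of 20 members higher and 3 lower (30% and 15%, against 16.4% and 18.8% of all genes). Ctgf (chromosome 10, 24595441 to 24598682, plus strand), a secreted matrix protein and a target of YAP, was at 0.610, 1.12 and 2.29 CPM in fed and 1.46, 3.89 and 6.77 CPM in fasted pools. It was higher in all 8 pairs, and its log2 fold change was 1.71 ± 0.19 (adjusted p = 4.24e-05). Vcam1, an adhesion molecule in the macrophage-enriched class, was at 5.91, 9.96 and 13.9 CPM in fed and 9.09, 21.7 and 32.3 CPM in fasted pools, with a log2 fold change of 0.96 ± 0.12 (adjusted p = 0.000125). Vegfa, the growth factor for endothelium that hepatocytes make, was at 275, 408 and 462 CPM in fed and 173, 242 and 349.9 CPM in fasted pools, lower in all 8 pairs, with a log2 fold change of -0.73 ± 0.07 (adjusted p = 1.72e-05).

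Stellate cell and fibroblast markers fell more often than they rose: 9 of 26 fell and 4 rose (34.6% and 15.4%), with a median of -0.23, and 18 of the 26 were in the class depleted from both. Their summed level was at 329, 486 and 564 CPM in fed and 273, 404 and 497 CPM in fasted pools. Col14a1 (chromosome 15, 55307749 to 55520803, plus strand), a collagen bound to fibrils, was at 28.2, 49.7 and 71.9 CPM in fed and 13.9, 25.2 and 30.6 CPM in fasted pools. It was lower in all 8 pairs, and its log2 fold change was -1.06 ± 0.15 (adjusted p = 0.000358). Col1a1, a chain of the main fibril collagen, was at 3.11, 6.98 and 8.96 CPM in fed and 1.79, 3.61 and 6.05 CPM in fasted pools, with a log2 fold change of -0.82 ± 0.13 (adjusted p = 0.000468) and 1 of 8 pairs higher. Pdgfra, a receptor for platelet-derived growth factors, went the other way, at 4.92, 6.97 and 9.36 CPM in fed and 8.53, 11.1 and 13.9 CPM in fasted pools, higher in all 8 pairs, with a log2 fold change of 0.69 ± 0.09 (adjusted p = 9.19e-05). Genes of the extracellular matrix and TGF-β pathway had 11 of 30 members lower and 2 higher (36.7% and 6.67%, against 18.8% and 16.4% of all genes), with 7 lower without the 8 h pools. Col6a3 was at 11.8, 17.2 and 22.7 CPM in fed and 6.07, 9.64 and 14.8 CPM in fasted pools, with a log2 fold change of -0.85 ± 0.10 (adjusted p = 6.34e-05), and Col5a1 had a log2 fold change of -0.62 ± 0.09 (adjusted p = 0.000344).

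Among the class depleted from both, the highest log2 fold changes by the naming rule include Map3k6, a stress kinase (log2 fold change 2.05 ± 0.23, adjusted p = 6.34e-05), and Phf24 (log2 fold change 1.61 ± 0.17, adjusted p = 2.63e-05), beside Ctgf and Lyve1. The lowest include Scd1, the fatty acid desaturase (log2 fold change -2.43 ± 0.32, adjusted p = 0.000597), Fabp5, a fatty acid binding protein (log2 fold change -2.03 ± 0.33, adjusted p = 0.000621), and Igfbp5 (log2 fold change -1.84 ± 0.21, adjusted p = 0.000142). Scd1 is known as a hepatocyte gene. Igfbp5 was at 6.56, 17.9 and 41.8 CPM in fed and 2.80, 5.004 and 14.7 CPM in fasted pools, with 39.2 and 41.8 CPM in the fed pools of 3 h and 5.14 and 14.7 CPM in the fasted pools of that time. It was lower in all 8 pairs. In tagged hepatocyte nuclei its log2 fold change was -3.06 ± 0.20 and in tagged macrophage nuclei -1.244 ± 0.15.

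Markers of bile duct cells, lymphocytes and rarer cells had between 1 and 6 calls a list. Of 12 bile duct markers 6 fell and 0 rose (50% lower, against 18.8% of all genes), with a median of -0.35 (3 fell without the 3 h pools, and 3 without the 8 h pools), and a summed level of 678, 888 and 1090.0 CPM in fed and 305, 397 and 558 CPM in fasted pools. Onecut1, at 110.2, 325 and 537 CPM in fed and 33.9, 81.4 and 164 CPM in fasted pools, and Pkhd1, at 279, 354 and 480.0 CPM in fed and 81.7, 169.9 and 280.1 CPM in fasted pools, hold most of that sum, and both are in the hepatocyte-retained class. Onecut1, a transcription factor, had a log2 fold change of -1.996 ± 0.38 (adjusted p = 0.00397), and Pkhd1, the fibrocystin gene, -1.11 ± 0.09 (adjusted p = 5.43e-06). The defining duct genes Krt19, Krt7, Epcam and Sox9 had -0.59, -0.65, -0.20 and -0.37, none of which passed the test. Of 18 lymphocyte markers 5 fell and 1 rose (27.8% and 5.56%, against 18.8% and 16.4% of all genes), with 2 to 6 lower when single pools were left out. Pax5, the B cell factor, was at 6.03, 10.6 and 13.6 CPM in fed and 3.22, 6.09 and 20.0 CPM in fasted pools, with a log2 fold change of -0.50 ± 0.12 (adjusted p = 0.00694). Of 8 dendritic cell markers 1 rose and 1 fell (12.5% each, against 16.4% and 18.8% of all genes). Clec9a, a receptor on such cells that is in the macrophage-enriched class, was at 15.03, 19.6 and 26.9 CPM in fed and 21.6, 31.0 and 39.5 CPM in fasted pools, higher in all 8 pairs, with a log2 fold change of 0.57 ± 0.08 (adjusted p = 0.000162). In tagged macrophage nuclei it had -0.19 ± 0.13, without a call, at a mean of 191 CPM. In tagged hepatocyte nuclei it had 0.81 ± 0.12, with a call, at 3.97 CPM. Clec9a starts at 129408861 on chromosome 6, after Clec1b, which ends at 129405413 on the same strand. Whether their reads are independent was not tested. Of the 15 monocyte and neutrophil markers 4 were tested and 1 fell (25%, against 18.8% of all genes). Of the 9 erythroid markers 2 were tested and 1, Alas2, fell (50%). Both tested erythroid markers are in the hepatocyte-retained class.

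Kupffer cell and macrophage markers were called about as often as all genes, with 5 of 30 higher and 6 lower (16.7% and 20%, against 16.4% and 18.8%), a median of -0.09 and a summed level of 626, 684 and 716 CPM in fed and 577, 705 and 780.1 CPM in fasted pools. Clec4f and Vsig4, which define Kupffer cells in mice, had 0.02 and 0.02, without a call. With single pools left out 2 to 5 of the list rose and 5 to 8 fell, and 2 rose without the MAC-line 3 h fed, the HEP-line 3 h fasted or the MAC-line 24 h fasted pool. Clec1b (chromosome 6, 129397296 to 129405413, plus strand), a C-type lectin receptor, was at 5.66, 7.83 and 9.58 CPM in fed and 9.37, 12.4 and 15.6 CPM in fasted pools, with a log2 fold change of 0.60 ± 0.08 (adjusted p = 0.000103), and was higher in all 8 pairs. Cd163, the scavenger receptor for haemoglobin, was at 18.6, 25 and 42.5 CPM in fed and 16.3, 50.7 and 63.6 CPM in fasted pools, with a log2 fold change of 0.64 ± 0.09 (adjusted p = 0.000202). Folr2, a folate receptor, was at 0.871, 1.99 and 2.70 CPM in fed and 0.523, 0.864 and 1.42 CPM in fasted pools, lower in all 8 pairs, with a log2 fold change of -1.15 ± 0.20 (adjusted p = 0.000871). In tagged macrophage nuclei Clec1b had -0.09 ± 0.13, without a call, while Cd163 had 0.77 ± 0.12 and Folr2 -1.20 ± 0.13, both called. In tagged hepatocyte nuclei Clec1b had 0.94 ± 0.13, with a call. Its mean level there was 1.74 CPM, against 91.5 CPM in tagged macrophage nuclei.

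In the macrophage-enriched class as a whole, Pla2g7, a secreted phospholipase for oxidised lipids, had the highest log2 fold change by the rule, 1.88 ± 0.16 (adjusted p = 7.71e-06), at 1.22, 2.38 and 4.87 CPM in fed and 4.84, 9.48 and 11.9 CPM in fasted pools. In tagged nuclei it was 1.96 ± 0.30 in hepatocytes and 2.07 ± 0.14 in macrophages. Slc41a3, a magnesium transporter, was at 1.40, 3.41 and 4.92 CPM in fed and 5.596, 10.7 and 23.3 CPM in fasted pools, without overlap, with a log2 fold change of 1.65 ± 0.14 (adjusted p = 7.64e-06). Fmn1, an actin nucleator, was at 168, 198 and 287 CPM in fed and 55.9, 73.9 and 109 CPM in fasted pools, also without overlap, with a log2 fold change of -1.43 ± 0.13 (adjusted p = 2.33e-05). Both Slc41a3 and Fmn1 changed less in tagged macrophage nuclei than in the pools. The log2 fold change of the pools minus that of these nuclei was 1.38 for Slc41a3 and -1.3 for Fmn1. Kntc1, which acts in cell division, had a log2 fold change of -1.87 ± 0.27 (adjusted p = 0.000255), and Dtl, which acts in DNA replication, had a log2 fold change of -1.58 ± 0.18 (adjusted p = 4.36e-05).

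**Figure D3:**
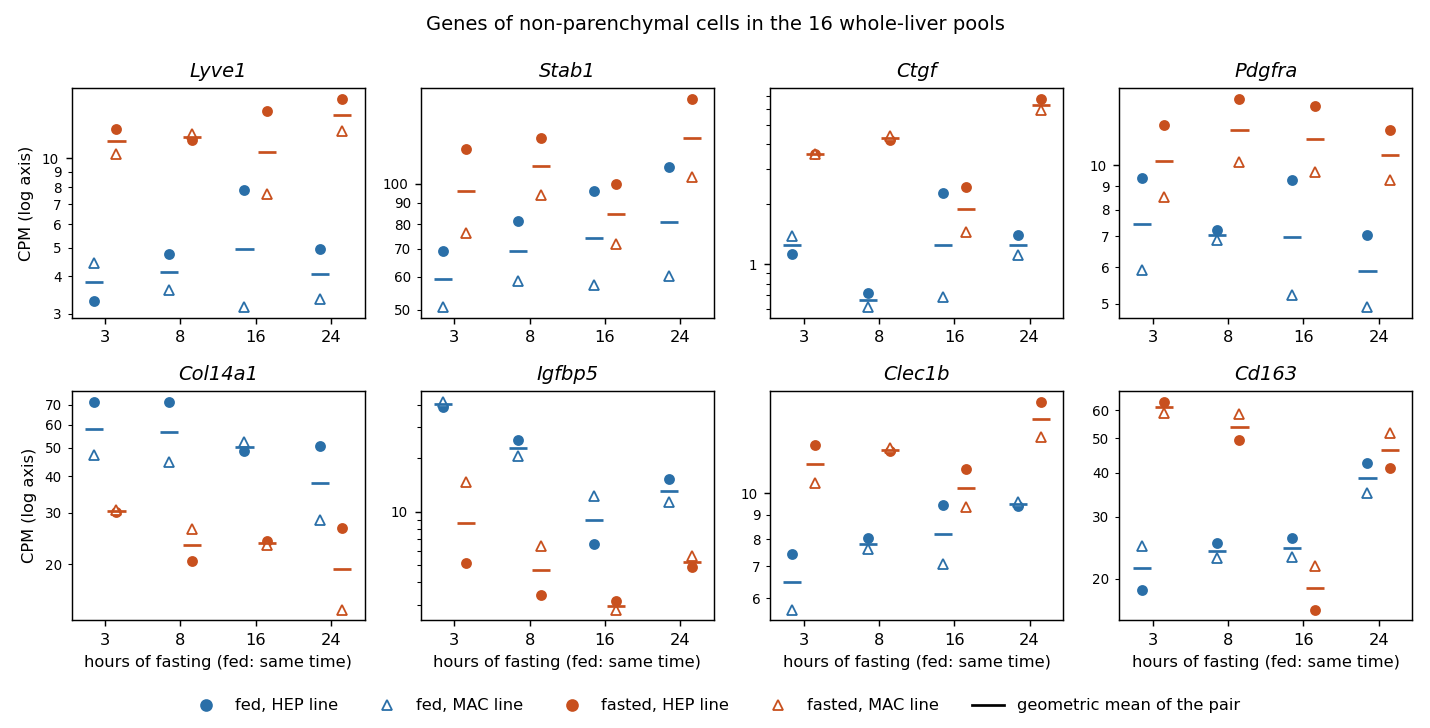
Levels of 8 genes used as non-parenchymal examples in each of the 16 whole-liver pools, as CPM on a log axis, against hours of fasting. Blue symbols are fed and orange symbols fasted pools, filled circles the HEP line and open triangles the MAC line, and bars the geometric mean of the 2 pools of a condition. Lyve1, Stab1, Ctgf, Pdgfra and Clec1b are higher in all 8 pairs, Col14a1 and Igfbp5 are lower in all 8 pairs, and Cd163 is higher at 3 and 8 h, with no call at 16 h.

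The size of the response differed with time. Each duration of fasting was sampled at a single zeitgeber time, so duration and time of day cannot be told apart. At 3 h 1204 genes were higher and 1269 lower (18.1% called in all), at 8 h 1195 and 1609 (20.5%), at 16 h 289 and 521 (5.91%) and at 24 h 395 (2.88%) and 424 (5.98% in all). The SD of the log2 fold changes over genes was 0.67, 0.71, 0.55 and 0.57. Each time rests on 2 against 2 pools, so leaving out a pool of that time leaves 1 in its group. The count at 3 h was then 636 without the HEP-line fed, 1260 without the MAC-line fed and 502 without the HEP-line fasted pool. At 8 h it was 1083, 1624 and 672 without the same 3 pools of that time. At 16 h it was 515 and 152 without the HEP-line and MAC-line fed pools and 129 and 142 without the fasted ones, and at 24 h 381, 374, 482 and 131 in that order. Of the 13700 genes, 72 were called at all 4 times, of which 21 rose and 46 fell each time. A test of the difference between the 4 times called 816 genes (5.96%). That count was 135 and 215 without the HEP-line and MAC-line 3 h fed pools, 267 without the HEP-line 3 h fasted pool, 405 without the HEP-line 16 h fed pool, 212 and 379 without the HEP-line and MAC-line 16 h fasted pools, and 399 and 531 without those of 24 h.

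The 5 genes with the smallest p in that test kept their call without any one of the 16 pools. Gria3, a glutamate receptor subunit on chromosome X, was at 23.8 and 22.3 CPM in the fed and 6.42 and 5.94 CPM in the fasted pools of 8 h, and at 8.62 and 8.59 CPM and 18.8 and 15.8 CPM at 24 h. Its log2 fold changes were -1.08 ± 0.19, -1.897 ± 0.19, 0.46 ± 0.17 and 1.01 ± 0.19 at the 4 times, so that it was lower at 3 and 8 h and higher at 24 h. Esr1, the estrogen receptor α, was lower at 8 h (-2.48 ± 0.16) and 24 h (-2.10 ± 0.16), while its values were -0.63 ± 0.15 at 3 h and -0.31 ± 0.15 at 16 h. Upp2, a uridine phosphorylase, changed sign, with 2.34 ± 0.29 at 3 h and -2.39 ± 0.29 at 16 h, and had no call over the 4 times (log2 fold change -0.32 ± 0.14, adjusted p = 0.0841). Rtn4rl1, a relative of the Nogo receptor, had a log2 fold change of -0.72 ± 0.19 at 3 h and 1.98 ± 0.20 at 24 h. Hao2, a peroxisomal hydroxyacid oxidase, was at 12.8 and 16.3 CPM in fed and 0.650 and 0.449 CPM in fasted pools of 8 h, with a log2 fold change of -4.67 ± 0.33, and had a log2 fold change of -0.74 ± 0.30 at 24 h.

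Other named genes also differed between times. Cd163 was at 18.6 and 24.7 CPM in the fed and 63.6 and 58.8 CPM in the fasted pools of 3 h, and at 26.0 and 23.05 CPM and 16.3 and 21.7 CPM at 16 h, with log2 fold changes of 1.498 ± 0.18 and -0.37 ± 0.18 (adjusted p of the time test 0.00771). Pax5 had a log2 fold change of -1.29 ± 0.24 at 8 h and 0.54 ± 0.22 at 16 h (adjusted p 0.027). Ddit4, a glucocorticoid-induced inhibitor of mTORC1, had a log2 fold change of 3.09 ± 0.36 at 3 h and -1.52 ± 0.40 at 16 h (adjusted p 0.00525).

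**Figure D4:**
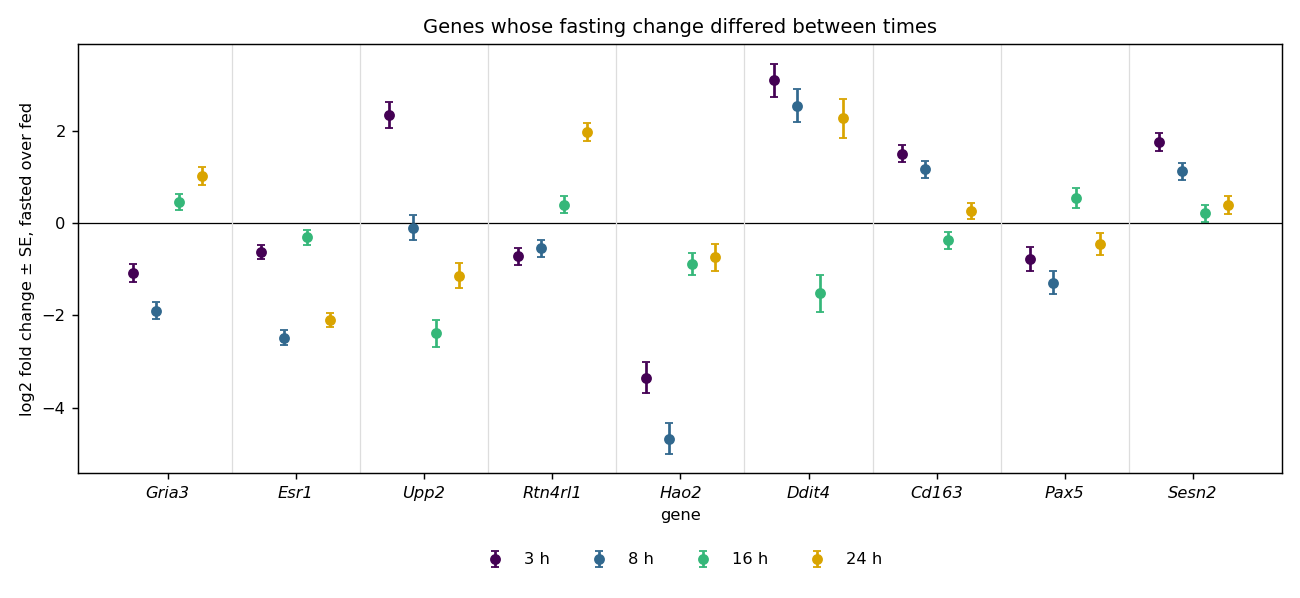
Log2 fold change of fasted over fed whole-liver pools, with its standard error, at 3, 8, 16 and 24 h for 9 genes that passed the test of a difference between times. Gria3 goes from -1.897 at 8 h to 1.01 at 24 h, Upp2 from 2.34 at 3 h to -2.39 at 16 h, and Cd163 from 1.498 at 3 h to -0.37 at 16 h.

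The 2 lines, whose library codes run separately, were set side by side. A test of the difference between their mean fasting changes called 0 of 13700 genes with edgeR; 439 had an unadjusted p under 0.05, and 0 genes were called by DESeq2. Fitted alone, the 8 HEP-line pools gave 2 calls (0.0148% of genes) and the 8 MAC-line pools 866 (6.47%), with 3 residual degrees of freedom each. Over 13258 genes the 2 sets of log2 fold changes had a Pearson r of 0.83, which is across genes and describes libraries that share no pool. Of the 865 calls of the MAC line, 99.4% had the same sign in the HEP line, where 80.0% of all genes had the same sign. Lyve1 had 1.44 ± 0.20 in the HEP line and 1.51 ± 0.17 in the MAC line, Col14a1 -1.239 ± 0.16 and -0.89 ± 0.12, Cdkn1a 2.45 ± 0.49 and 2.97 ± 0.36, and Sqle -3.04 ± 0.63 and -3.27 ± 0.37.

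Against tagged hepatocyte nuclei, the fasting change of the pools differed for 10 of 13683 genes (0.0731%). The named ones among them lie in the macrophage-enriched class or the class depleted from both. Dock6, a guanine nucleotide exchange factor that overlaps Gm6484, had a log2 fold change of -0.49 ± 0.07 (adjusted p = 0.000296) in the pools, where it was at 57.7, 79.3 and 104 CPM in fed and 44.7, 56.7 and 74.5 CPM in fasted pools, and -1.34 ± 0.08 in tagged hepatocytes. Irf5, a transcription factor of macrophages that overlaps Tnpo3 on the other strand, had a log2 fold change of -0.89 ± 0.11 (adjusted p = 7.34e-05) and -2.06 ± 0.14, and -0.30 ± 0.09 in tagged macrophages. Uba7, the enzyme that activates the ubiquitin-like protein ISG15, had a log2 fold change of -0.78 ± 0.13 (adjusted p = 0.000952), -1.94 ± 0.14 and -0.63 ± 0.12. Dgkh, a diacylglycerol kinase, had a log2 fold change of 0.80 ± 0.12 (adjusted p = 0.000394), 1.897 ± 0.13 and 0.57 ± 0.10. Stk10, a lymphocyte-oriented kinase, had no call in the pools (log2 fold change 0.08 ± 0.06, adjusted p = 0.311) and 0.95 ± 0.10 in tagged hepatocytes. Without single libraries or replicate sets this count ran from 0 to 13, and Dgkh, Irf5 and Uba7 lost their call in 14 or more of 20 such fits, Stk10 in 8 and Dock6 in 5.

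Against tagged macrophage nuclei 153 of 13700 genes differed (1.12%), of which 85 were hepatocyte-retained, 57 macrophage-enriched and 1 depleted from both. Of the 14312 genes of that fit 155 differed, and 98, 77, 490 and 77 did without replicates 1, 2, 3 and 4 of the tagged libraries. Fmn1 had a log2 fold change of -1.43 ± 0.13 (adjusted p = 2.33e-05) in the pools, -2.24 ± 0.16 in tagged hepatocytes and -0.13 ± 0.08 in tagged macrophages. Slc41a3 had a log2 fold change of 1.65 ± 0.14 (adjusted p = 7.64e-06), 2.24 ± 0.19 and 0.28 ± 0.08. Txnip, which slows glucose uptake, had a log2 fold change of 1.79 ± 0.36 (adjusted p = 0.00498), 2.97 ± 0.23 and 0.20 ± 0.17. Cebpd had a log2 fold change of 1.67 ± 0.18 (adjusted p = 3.24e-05), 1.55 ± 0.21 and 0.19 ± 0.13. For Lyve1 the values were 1.45 ± 0.16 (adjusted p = 4.32e-05) in the pools, 1.84 ± 0.21 in tagged hepatocytes and 1.72 ± 0.17 in tagged macrophages, and neither difference passed the test. Lyve1 is in the class depleted from both, with mean levels of 8.26 CPM in the pools, 1.65 CPM in tagged hepatocytes and 4.04 CPM in tagged macrophages. Which cells gave its reads in the tagged nuclei was not tested.

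**Figure D5:**
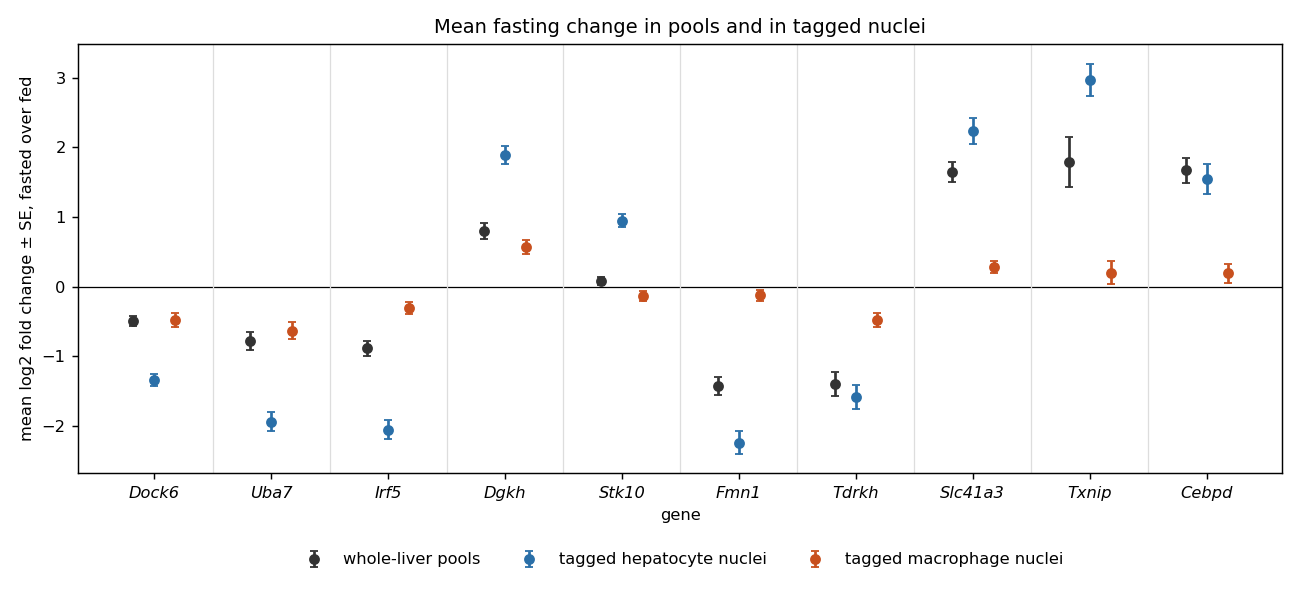
Mean log2 fold change over the 4 times, fasted over fed, with its standard error, in 16 whole-liver pools (dark), 32 libraries of tagged hepatocyte nuclei (blue) and 32 of tagged macrophage nuclei (orange) for 10 genes that differed between pools and a tagged cell type. Dock6, Uba7, Irf5, Dgkh and Stk10 are farther from 0 in tagged hepatocytes than in the pools, and Fmn1, Tdrkh, Slc41a3, Txnip and Cebpd are nearer to 0 in tagged macrophages than in the pools.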

How the data were processed

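Nuclear RNA of whole liver was sequenced as paired 50-base reads from stranded libraries without selection for polyadenylated RNA, per the labels' protocols. The authors deposited 1 table of raw read counts per gene, with gene positions; 2 tables of their own comparisons in tagged nuclei were not used here. Build mm10, STAR 2.4.2a and DESeq2 1.24.0 come from the submitters' processing notes. How reads were assigned to genes, and with which strand setting, was not given in the sources used here. Each listed length equals gene end minus start, a span that includes introns, and reads of overlapping genes or close copies cannot be told apart.

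Columns were matched to samples by title. Genes had to pass filterByExpr with a count minimum of 10 and a total minimum of 15. TMM factors scaled the libraries, and fasting was tested by a robust quasi-likelihood F-test in edgeR 4.0.16 (R 4.3.3), with Benjamini-Hochberg adjustment over all genes at 0.05. The terms were the 8 conditions and the line, which left 7 residual degrees of freedom. The standard error was taken from the F statistic. Differences between times, between lines and between pools and tagged nuclei were contrasts of such fits. Totals of 13246494 counts and more per pool set the precision of low genes. Scripts were tested on simulated counts. Promoters were matched by symbol and start: 9811 of 13700 genes (71.6%) had a RefSeq promoter of build GRCm38.p6 within 100 bases of the listed start.

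Named genes are the 10 highest and 10 lowest called log2 fold changes with at least 1 CPM and the same sign in all 8 pairs, a fasting panel, up to 3 called members per list with the smallest p, the 5 highest and 5 lowest of 2 source classes and the 5 smallest p of the time and hepatocyte comparisons (the line comparison had no call). Examples were taken from these, and some of them are not reported here. Members of the lists, and the lists themselves, were chosen with earlier results of these data known. Alternatives were RLE scaling, no filter, DESeq2 1.42.0, other models, and leaving out pools, times or lines; DESeq2 for the line comparison and the counts per list were added after the data were seen.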

Additional observations from a re-analysis of the deposited data

Results flagged for a closer look

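The test of a difference between the 4 times (edgeR's quasi-likelihood F-test, adjusted over all genes) passed for 816 genes in all. Among the named genes, the adjusted p values were 0.00177 for Gria3, 0.00177 for Esr1, 0.00247 for Upp2, 0.00247 for Rtn4rl1 and 0.00247 for Hao2, whose changes are given above. A further 13 had their highest log2 fold change at 3 h, or at 8 h for Ppp1r3g; values are given for 3, 8, 16 and 24 h. Aass had 1.74, 1.33, 0.12 and 1.09 (adjusted p = 0.0417). Bnip3l had 1.34, 0.99, -0.04 and 0.21 (adjusted p = 0.0321). Cd163 had 1.498, 1.16, -0.37 and 0.26 (adjusted p = 0.00771). Cdkn1a had 3.76, 2.65, 1.14 and 3.69 (adjusted p = 0.0227). Ddit4 had 3.09, 2.54, -1.52 and 2.26 (adjusted p = 0.00525). Foxo1 had 1.31, 0.73, -0.22 and 0.41 (adjusted p = 0.0297). Klf9 had 1.68, 0.99, 0.23 and 0.62 (adjusted p = 0.0269). Nfkbia had 1.35, 0.92, 0.13 and 0.40 (adjusted p = 0.0468). Nr0b2 had 1.70, 0.35, -0.84 and -1.09 (adjusted p = 0.0392). Ppp1r3g had 4.93, 6.64, 1.48 and -0.80 (adjusted p = 0.0134); its fed pools of 8 h were at 0 and 0.0610 CPM, so the fitted value there is no bound. Sdsl had 2.26, 1.71, 0.22 and 1.59 (adjusted p = 0.0396). Sesn2 had 1.76, 1.12, 0.21 and 0.39 (adjusted p = 0.0194). Tdo2 had 1.70, 1.49, 0.28 and 0.99 (adjusted p = 0.0467). The other 7 had values below 0 at 8 h. Bcl11a showed log2 fold changes of -0.71, -1.03, 0.38 and -0.14 (adjusted p = 0.0304). Bhlhe40 showed log2 fold changes of -0.03, -0.36, -1.13 and -1.05 (adjusted p = 0.0411). Cyp3a16 showed log2 fold changes of -1.11, -2.52, -1.40 and -2.30 (adjusted p = 0.041). Mlxipl showed log2 fold changes of -0.21, -0.97, -1.13 and -1.37 (adjusted p = 0.0241). Oasl1 showed log2 fold changes of -1.74, -1.86, -0.23 and -0.66 (adjusted p = 0.0403). Pax5 showed log2 fold changes of -0.78, -1.29, 0.54 and -0.46 (adjusted p = 0.027). Pkhd1 showed log2 fold changes of -1.12, -1.92, -0.75 and -0.63 (adjusted p = 0.0265).

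The fasting change of the pools differed from that of tagged hepatocyte nuclei for 10 genes by edgeR's test, and from that of tagged macrophage nuclei for 155. The named genes with such a difference from hepatocytes, as the log2 fold change of the pools minus that of the tagged nuclei, were Dgkh (-1.12 ± 0.22, adjusted p = 0.035), Dock6 (0.83 ± 0.14, adjusted p = 0.014), Irf5 (1.15 ± 0.22, adjusted p = 0.035), Stk10 (-0.89 ± 0.16, adjusted p = 0.019) and Uba7 (1.14 ± 0.22, adjusted p = 0.035). From macrophages they were Cdkn1a (1.40 ± 0.32, adjusted p = 0.015), Cebpd (1.48 ± 0.25, adjusted p = 0.001), Fmn1 (-1.30 ± 0.15, adjusted p = 1.4e-06), Myom1 (0.85 ± 0.22, adjusted p = 0.047), Sesn2 (0.64 ± 0.15, adjusted p = 0.024), Slc41a3 (1.38 ± 0.15, adjusted p = 4.7e-07), Tdrkh (-0.92 ± 0.19, adjusted p = 0.0058) and Txnip (1.59 ± 0.30, adjusted p = 0.0026). With 2 pools a condition, no pool was tested for standing apart within its group.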

How the results depend on the processing

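The numbers called over the 4 times kept within 1.5 times of 4826 under RLE scaling, no filter, DESeq2, the additive model, no scaling factor, and without the 3, 16 or 24 h pools, and ran from 3797 to 5124 with single pools left out. They were 2855 without the 8 h pools, 2 in the HEP line alone and 866 in the MAC line alone, fits with fewer pools and 3 residual degrees of freedom for a line. With single pools left out, calls ran from 502 to 2728 at 3 h, 672 to 3182 at 8 h, 129 to 964 at 16 h, 131 to 908 at 24 h, 135 to 1219 for the time test and 0 to 0 for the line test. With single pools or tagged replicates left out they ran from 0 to 13 against hepatocytes and 77 to 490 against macrophages; without tagged replicates 1, 2, 3 and 4 they were 4, 13, 3 and 6, and 98, 77, 490 and 77. The source classes stayed within 1.5 times under RLE scaling. Gria3 and Rtn4rl1, whose signs differ between times, turned to 0.13 without the 8 h pools and to -0.29 without the 24 h pools. Of 142 named genes called over the 4 times, 134 kept the call without each pool in turn; Actg2, Cd79a, Cxcl9, Cyp7a1, G6pc, Per1, Rtn4rl1 and Skap1 did not, and the cause was not tested.

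Treating the 2 pools of a line and time as a replicate block gave 3198 calls, 1399 higher and 1799 lower, and moved 22 of 66 list counts by over 1.5 times, among them genes that rose in gluconeogenesis (12 to 5), amino acid catabolism (16 to 9), autophagy (15 to 7), FoxO targets (14 to 9), sinusoidal endothelial (11 to 7), hepatocyte (7 to 1), Kupffer cell (5 to 1) and stellate cell markers (4 to 2), and genes that fell in acute phase (7 to 3), autophagy (4 to 2), sinusoidal endothelial (4 to 1) and lymphocyte lists (5 to 3). The block model also replaces the fasting effect at each time by a single fasting term, so the fall from 4826 calls is not due to the blocks alone. The additive model, which has the same single fasting term without blocks, gave 3656 calls. It gave 7 gluconeogenic and 10 amino acid genes that rose and moved 16 such counts. These counts per list were chosen after the data were seen. Deviations of the 2 pools of a line and time from their condition and line means had r from -0.14 to 0.06. With 2 pools a condition these values are the same for both lines. Removing the means also lowers r, so the check cannot tell whether these pools pair. The 2 pools of each condition limit what single times can show.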
